A study of Danio rerio with 72 samples.

Results

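The comparison described here set zebrafish embryos bathed for 1.5 h in DAPT against embryos bathed for 1.5 h in its solvent, DMSO. Arrays were assigned by their titles, which gave 3 arrays of DAPT and 4 of DMSO, 7 of the 72 arrays of the study, and every probe set that is not an Affymetrix control was considered. All 7 came from wild-type embryos of the AB line raised at 24 °C to 12 somites and treated at that temperature. The embryos were freed of their chorions by hand, and the posterior presomitic mesoderm (PSM) was then cut out and its RNA hybridised. The wider study asked how the signalling pathways of this tissue shape its gene expression. It also held DAPT for 3 h (2 arrays) with DMSO for 3 h (4 arrays), both in wild-type AB embryos, and DMSO for 1.5 h from a separate retinoic acid (RA) experiment (4 arrays). A gain of Notch signalling was given by embryos carrying both the UAS:myc-notch1a-intra and hsp70;gal4VP16 transgenes. They were heat-shocked at 37 °C for 60 min and dissected 45 min or 90 min later, beside embryos with hsp70;gal4VP16 only that received the same shock, with 4 arrays in each of these groups. The heat-shock promoter acts throughout the embryo, and the drugs bathed whole embryos, so neither manipulation was limited to the PSM. Neither the dose of DAPT nor the number of embryos per array is stated in the labels.

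The PSM is the unsegmented tissue at the tail end of the embryo from which somites bud off in a regular rhythm. The rhythm is tied to a clock of oscillating genes, among them the repressors her1 and her7 and the ligand deltaC (dlc), and Notch signalling between neighbouring cells keeps the oscillations in step. A Notch receptor bound by a Delta or Jagged ligand is cut first by an ADAM protease and then by gamma-secretase, which frees the intracellular domain to enter the nucleus and switch on targets such as the her and hey repressors and nrarp, a feedback inhibitor. DAPT blocks gamma-secretase and so withholds that intracellular domain.

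Levels are log2 signals after quantile normalization and cannot go below 4, and each difference is DAPT minus DMSO with the standard error of a limma fit. The PSM of the tissue label was borne out by its markers: msgn1 lay between 12.28 and 12.61 on the 7 arrays, hes6 between 11.29 and 11.44, cdx4 between 11.81 and 12.25, and 8 of 9 PSM markers exceeded the array median on all 7. So did 2 of 3 markers of anterior PSM and somite, mespaa and pcdh8, while aldh1a2 exceeded it on 5 arrays. Cells outside the PSM were also represented. All 5 epidermal markers exceeded the array median on all 7 arrays, with krt4 between 8.98 and 10.92, and so did apoeb. The same held for 2 of 4 muscle markers (unc45b, actc1b), 2 of 6 neural markers (sox3, elavl3) and 1 of 3 germ cell markers (dnd1). It held for none of the 4 pronephric, the 4 notochord or the 4 blood and endothelial markers. In bulk tissue, fewer cells of a type and less RNA per cell cannot be told apart.

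Replicate 1 of DAPT stood apart from the other 6 arrays. Its median log2 signal before normalization was 6.04, against 5.59 to 5.75 in the others. It correlated with them at 0.923 to 0.932 over the probe sets tested, while the others correlated among themselves at 0.948 to 0.973. When limma estimated a quality weight for each of the 72 arrays, it received the lowest, 0.221. Results are therefore given with this array and without it. The labels name the arrays biological replicates.

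Of 10126 probe sets tested, 414 passed an adjusted p of 0.05, which is 4.09% of those tested. They comprised 189 higher (1.87%) and 225 lower (2.22%) with DAPT, and 1852 probe sets had an unadjusted p under 0.05. When arrays were centred on their medians in place of quantile normalization, the split was 72 higher and 256 lower. Without replicate 1 of DAPT, 225 probe sets were called (2.22%), 109 higher (1.08%) and 116 lower (1.15%), and 145 of them had been called in the same direction with all 7 arrays. The arrays of the groups did not overlap at 313 of the 414 called probe sets, while 11.3% of all those tested showed such separation, 5.47% with DAPT higher and 5.87% with DAPT lower. The calls also rested on the spread estimated over all 19 groups of the study: when the 7 arrays were fitted alone, 7 probe sets passed. They were rpl28, rpl17, sec24a and a pair of probe sets of zgc:173837, which rose, and pcmtd1 and zgc:56585, which fell. The genes with placeholder names, singled out after their values were seen, had the larger differences, 1.85 and 1.67 for zgc:173837 and -2.58 for zgc:56585, with limma adjusted p-values of 0.0248, 0.0418 and 0.0054 in the fit of the 7 arrays. There were 70 probe sets called with all arrays and again with each of the 7 left out in turn, 35 higher and 35 lower. Counted by gene, with the brightest probe set for each, 137 of 6503 genes rose (2.11%) and 132 fell (2.03%), 4.14% in all, with a median difference of 0.00791. Without replicate 1 of DAPT 1.2% rose and 0.923% fell, 2.12% in all. Arrays did not overlap for 12% of genes, 6.35% with DAPT higher and 5.63% with DAPT lower.

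**Figure D1:**
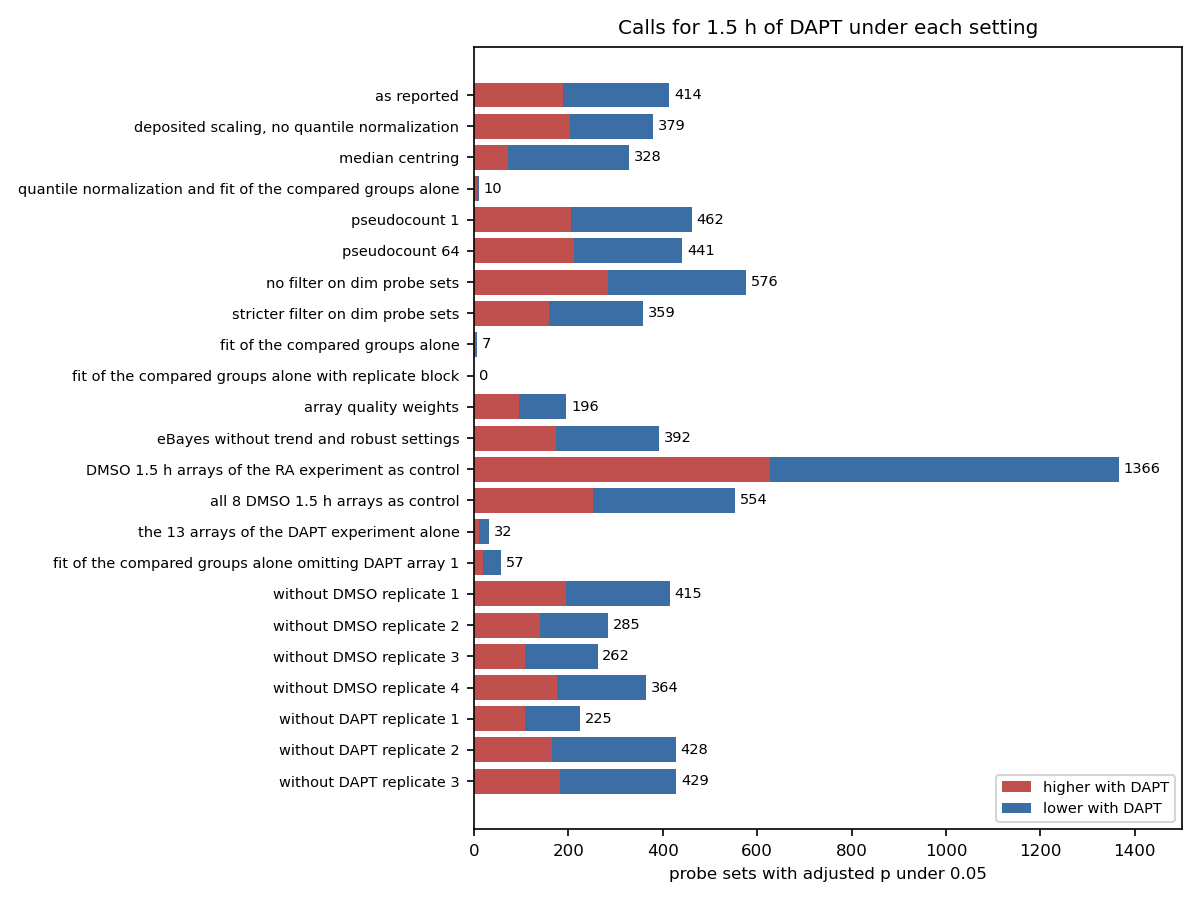
Number of probe sets with an adjusted p under 0.05 for 1.5 h of DAPT against DMSO, as bars divided into higher and lower with DAPT, for the analysis as reported and for each alternative. The bar of 414 shrank to 225 without replicate 1 of DAPT and to 7 when the groups were fitted alone.

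The clearest change in the Notch pathway was a fall of nrarpa, whose product binds the Notch transcription complex and dampens it. Its brightest probe set read 11.69, 11.67, 11.00 and 11.55 on the DMSO arrays and 10.73, 10.65 and 10.64 on the DAPT arrays. All 3 DAPT arrays were lower than every DMSO array. The difference was -0.80 ± 0.15, or 1.75-fold lower, with a limma adjusted p of 0.000895. It was -0.83 without replicate 1 of DAPT and stayed called with each array left out in turn. Over 22 alternatives the difference ranged from -0.96 to -0.73 and the adjusted p from 0.000149 to 0.185, and it passed in 17. With the 7 arrays fitted alone the adjusted p was 0.0769.

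The other nrarpa probe sets did not all follow. One read 7.50, 6.94, 6.64 and 6.94 with DMSO and 6.85, 5.76 and 5.84 with DAPT, a called fall of -0.85 ± 0.23 (limma adjusted p = 0.0234). There the groups overlapped, because replicate 1 of DAPT lay above replicate 3 of DMSO. The remaining one read 8.08, 7.82, 8.60 and 8.23 with DMSO and 7.03, 8.16 and 8.36 with DAPT, a difference of -0.34 ± 0.23 (limma adjusted p = 0.472) that came to 0.07 without replicate 1. This last probe set was the one that changed in the other Notch comparisons: it fell at 3 h of DAPT (-1.52, limma adjusted p = 0.000128) and rose 45 min (1.03) and 90 min (1.49) after notch1a-intra, whereas the brightest differed by -0.06, 0.21 and 0.39, none of them called. Which part of the transcript each probe set reads was not tested. The paralog nrarpb lay between 4.63 and 5.70 on the 7 arrays, near the bottom of the scale, and differed by 0.04 ± 0.22.

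Among Notch receptors, the enzymes that modify and cut them, and their nuclear partners, 3 of 15 genes tested fell and none rose, with a median difference of -0.16. Over all genes tested 2.03% fell, and 1194 of 6503 had an unadjusted p under 0.05. The 3 were nrarpa, rfng and adam17a. The protease adam17a, related to the ADAM10 sheddase that cuts ligand-bound Notch, read 7.31, 7.38, 7.36 and 7.63 with DMSO and 7.02, 6.82 and 6.54 with DAPT. The groups did not overlap, and the difference was -0.63 ± 0.17 (limma adjusted p = 0.0193). Without replicate 1 of DAPT it was -0.74, and the adjusted p over 22 alternatives ran from 0.017 to 0.464, under the threshold in 14.

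Radical fringe, rfng, encodes a glycosyltransferase that modifies Notch. It read 7.76, 8.27, 7.86 and 7.67 with DMSO and 5.54, 7.61 and 7.41 with DAPT. The first DAPT array was far below the rest, and the other DAPT arrays lay just under the lowest DMSO array. The called difference of -1.04 ± 0.28 (limma adjusted p = 0.022) became -0.38 without that array, with an adjusted p of 0.544, the highest among its alternatives, the lowest being 0.0043. The list's median also moved, to 0.0754, when that array was left out.

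The receptors themselves were not called. The receptor notch1a read 7.82, 6.91, 7.77 and 7.74 with DMSO and 7.52, 8.27 and 8.35 with DAPT, a difference of 0.49 ± 0.44. Levels of notch3 were 7.16, 6.90, 7.43 and 8.16 with DMSO and 7.71, 7.36 and 7.61 with DAPT, so the DAPT arrays fell inside the DMSO range. For notch2 the difference was 0.03 ± 0.22. The fringe lfng read 7.88, 7.63, 7.92 and 8.35 with DMSO and 6.62, 7.82 and 7.48 with DAPT, and its 95% interval was wide, from -2.33 to 1.06. Subunits of gamma-secretase, the enzyme DAPT inhibits, differed by -0.32 ± 0.17 for psen2, -0.47 ± 0.27 for aph1b and 0.20 ± 0.16 for psenen. The arrays of aph1b did not overlap, at 9.20, 9.16, 9.50 and 9.22 with DMSO against 8.85, 8.79 and 8.75 with DAPT, yet the limma adjusted p was 0.342. Separation with DAPT lower was found for 5.63% of all genes tested. The sheddase adam10b differed by -0.14 ± 0.15. Levels of notch1b, ncor1 and dtx4a were too low on all arrays to be tested.

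None of 8 ligand genes and ligand-processing genes was called, and 1 had an unadjusted p under 0.05, jag1b. Over all genes tested 4.14% were called, and 1194 of 6503 had an unadjusted p under 0.05. At those shares a list of 8 holds few of either in any case. Their median difference was -0.405, or -0.235 without replicate 1 of DAPT, beside 0.00791 for all genes tested. The oscillating ligand dlc read 9.28, 8.73, 10.24 and 10.38 with DMSO and 9.99, 8.64 and 8.68 with DAPT. The DMSO arrays fell into a lower pair and a higher pair, and the DAPT arrays straddled the same range, giving -0.55 ± 0.68. The ligand dld was the steadiest, at 10.25, 10.02, 10.16 and 10.16 with DMSO and 10.29, 9.88 and 10.14 with DAPT, so that its 95% interval ran only from -0.24 to 0.16. The Delta genes dla and dlb differed by -0.46 ± 0.60 and 0.00 ± 0.75. The Jagged ligands jag1a, jag1b and jag2b differed by -0.72 ± 0.38, -0.70 ± 0.29 and -0.35 ± 0.35, and mib1, the ubiquitin ligase that activates ligands, by 0.04 ± 0.23.

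**Figure D2:**
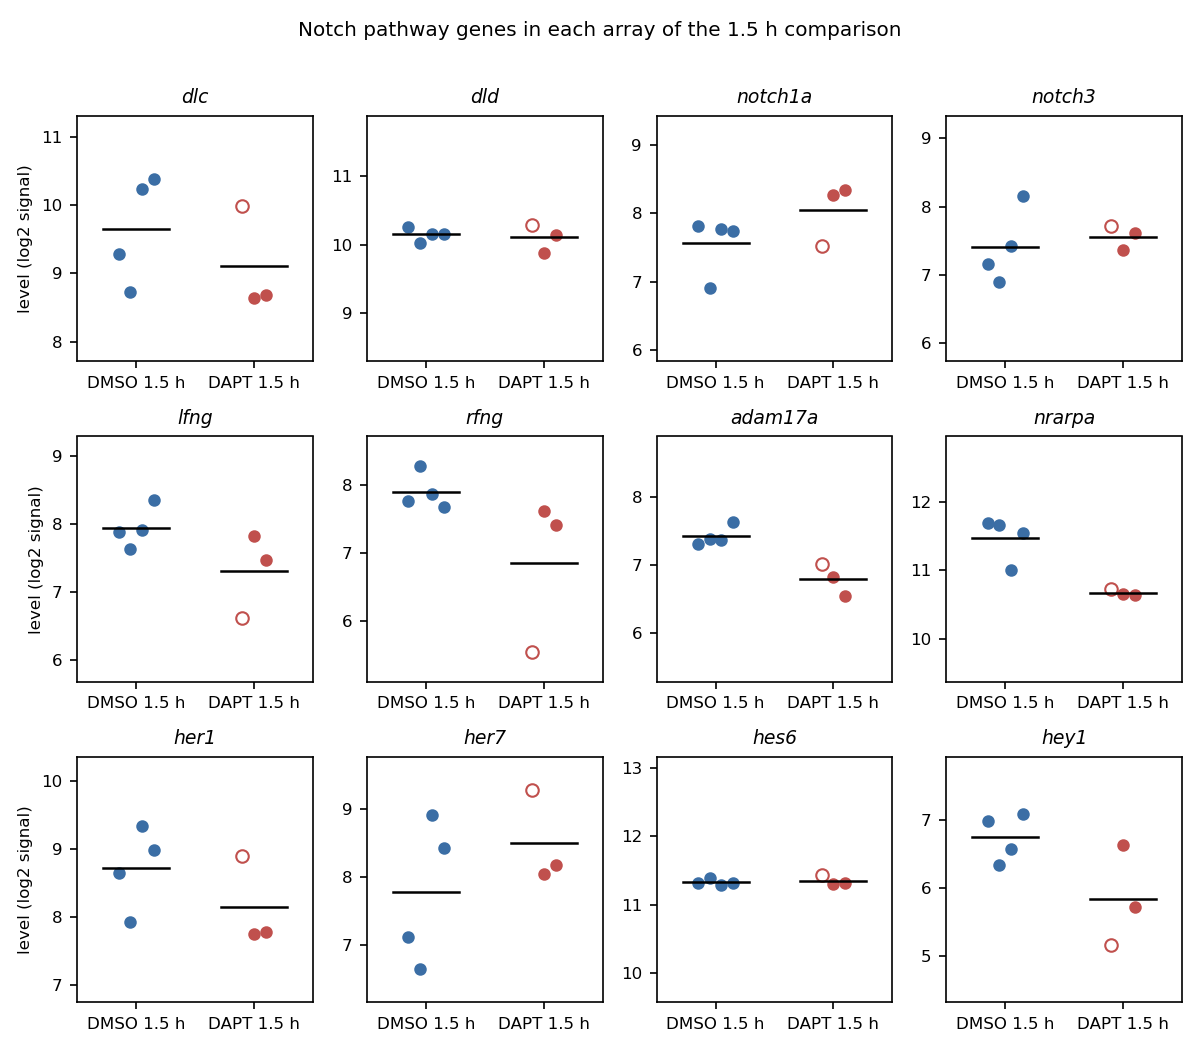
Log2 signal of 12 Notch pathway genes on each of the 4 DMSO and 3 DAPT arrays, with the group mean as a line and replicate 1 of DAPT as an open circle. Every panel spans the same height on the log2 scale. Of these 12 genes nrarpa, adam17a and rfng were called, and in rfng the open circle lies far below all other arrays.

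No member of the her, hes and hey family of repressors was called, of 14 tested. Over all genes tested 4.14% were called, so a list of 14 holds few calls in any case. None of the 14 had an unadjusted p under 0.05 in the limma fit. Their median difference was -0.209, with 8 negative and 6 positive, and 0.0522 without replicate 1 of DAPT. The clock gene her1 read 8.64, 7.93, 9.34 and 8.98 with DMSO and 8.89, 7.75 and 7.78 with DAPT, a difference of -0.59 ± 0.48. Its partner her7 read 7.12, 6.65, 8.91 and 8.42 with DMSO and 9.27, 8.05 and 8.17 with DAPT, a difference of 0.72 ± 0.59 in the other direction. In both genes the DMSO arrays covered most of the range taken by the DAPT arrays. Among the 4 DMSO arrays, replicates 3 and 4 were the higher pair and replicates 1 and 2 the lower for dlc, her1, her7 and her2 alike.

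Within-group spread of the oscillating genes her1, her7 and dlc was wide. Pooled over the 19 groups, the standard deviation was 0.783 for her7, 0.643 for her1 and 0.895 for dlc, and it was 1.12 for lfng, which is not known to oscillate in zebrafish, against a median of 0.284 over all probe sets tested. A smaller spread than that of her7 was found for 98.3% of probe sets, and for her1 the share was 96.7%. At the other end, hes6, a partner of the clock repressors that is expressed steadily, had a spread of 0.166. It read 11.32, 11.39, 11.29 and 11.31 with DMSO and 11.44, 11.30 and 11.32 with DAPT. Its 95% interval, which like the others rests on the pooled spread, ran from -0.22 to 0.27. The intervals of her1, from -1.56 to 0.38, and of her7, from -0.47 to 1.91, left room for larger changes, which these arrays could not detect.

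Among direct Notch targets, her4.2 and her4.5 lay at or below the array median on all 7 arrays. Levels of her4.5 were 4.62, 5.33, 5.20 and 4.95 with DMSO and 4.75, 4.44 and 4.49 with DAPT, close to the bottom of the scale, where a fall can hardly show. The difference was -0.46 ± 0.40 for her4.5, -0.29 ± 0.41 for her4.2 and 0.11 ± 0.35 for her15.2. The copies of her4 and of her15 in the zebrafish genome are nearly identical, so a probe set may read more than one. The repressor hey1 read 6.98, 6.34, 6.58 and 7.09 with DMSO and 5.16, 6.64 and 5.73 with DAPT, a difference of -0.91 ± 0.48 (limma adjusted p = 0.31), or -0.57 without replicate 1. Among the rest, her6 differed by 0.25 ± 0.45, her9 by -1.09 ± 0.75, her2 by 0.90 ± 0.50 and hey2 by -0.23 ± 0.34. Of the segmentation clock list, which overlaps these, 1 of 11 genes was called, nrarpa, with a median of 0.0256. The T-box gene tbx6 and mespaa, a determinant of somite boundaries, differed by 0.28 ± 0.39 and 0.27 ± 0.32, and mespaa read 7.32, 8.02, 6.54 and 6.91 with DMSO and 7.94, 7.50 and 6.95 with DAPT.

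Several of the same genes were called when Notch was raised. At 90 min after notch1a-intra, 6 of the 14 her, hes and hey genes rose and 1 fell in the limma fit (6.87% of all probe sets were called there, 3.72% higher and 3.15% lower), with her4.5 at 2.82, hey1 at 2.49, her15.2 at 2.12, her6 at 1.61 and her4.2 at 1.48. At 1.5 h of DAPT these 5 genes had differences from -0.91 to 0.25. Across 10126 probe sets the differences at 1.5 h of DAPT and 90 min after notch1a-intra had a Pearson correlation of 0.00559, and with 45 min it was -0.116, or -0.00433 without replicate 1 of DAPT. These groups share no arrays, and at 45 min 4.09% of probe sets were called, 2.13% higher and 1.96% lower. The 2 Notch manipulations differ in time, heat shock and line, and are set side by side here as values. Of the 414 calls, 15 were called in the opposite direction at 90 min (3.62% of them and 2.16% of the 696 calls there) and 10 in the same direction (2.42% and 1.44%).

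**Figure D3:**
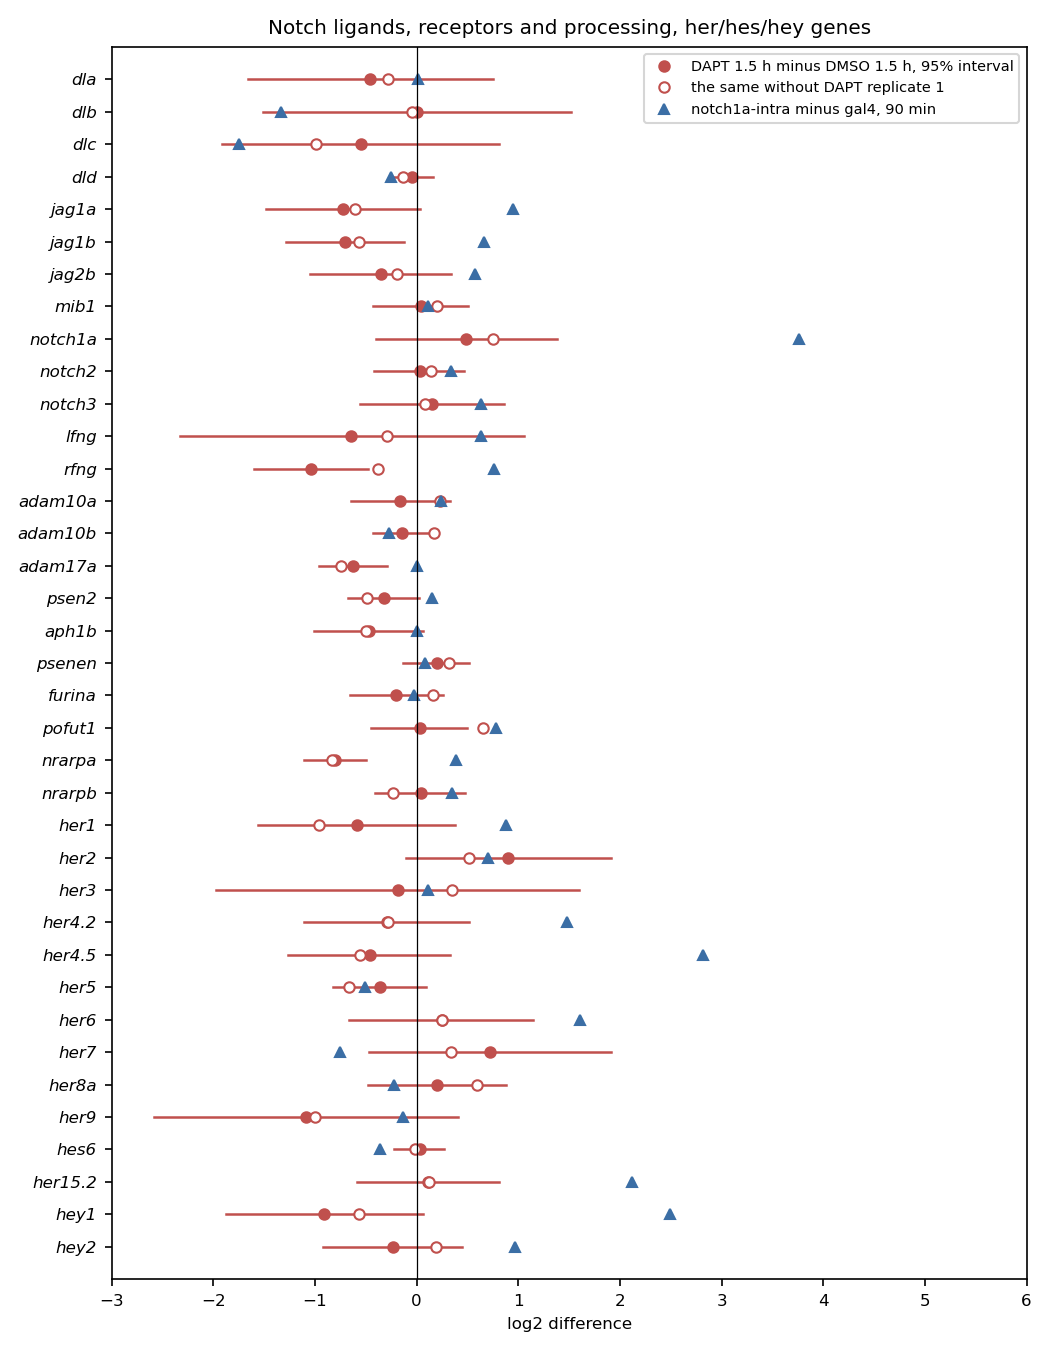
Log2 difference between DAPT and DMSO at 1.5 h (filled circles, with 95% intervals), the same without replicate 1 of DAPT (open circles), and the difference between notch1a-intra and gal4 embryos at 90 min (triangles), for 37 genes of the Notch pathway. Intervals of the oscillating genes are wide, that of nrarpa lies below 0, and her4.5, her15.2 and hey1 stand at more than 2 in the notch1a-intra comparison. The triangle of notch1a, at 3.76, may include RNA of the transgene.

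The 10 largest rises and 10 largest falls were taken from called genes with a name other than a placeholder and with arrays that did not overlap. Larger changes outside this rule included those of zgc:173837 and zgc:56585 given above, and zgc:56585 was also lower at 3 h (-2.86, limma adjusted p = 0.0122). The pair of zgc:173837 went the other way at 3 h. The probe set with 1.85 differed by -1.17 (limma adjusted p = 0.0696), and that with 1.67 fell by -1.73 (limma adjusted p = 0.00503). The gene dynlt2b, a light chain of dynein, read 6.77, 5.92, 7.46 and 6.82 with DMSO and 8.33, 8.47 and 8.16 with DAPT, a rise of 1.58 ± 0.38 (limma adjusted p = 0.00978). Levels of ap3s2, a subunit of the AP-3 vesicle adaptor, were 6.03, 6.76, 5.45 and 7.34 with DMSO and 7.79, 7.91 and 8.17 with DAPT, a rise of 1.56 ± 0.40 (limma adjusted p = 0.0141). In both, the DMSO arrays varied widely and the DAPT arrays lay close together above them. The gene sec24a, whose product selects cargo in the COPII coat, read 8.14, 7.90, 8.52 and 8.61 with DMSO and 9.50, 9.78 and 9.44 with DAPT. It rose by 1.28 ± 0.20 (limma adjusted p = 8.18e-05) and passed in 21 of 22 alternatives, the exception being an adjusted p of 0.15 with the replicate number as a block.

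Next came npat, a coactivator of histone genes (1.23 ± 0.31), coq2, an enzyme of coenzyme Q synthesis (1.16 ± 0.31), and the ribosomal protein gene rpl27a (1.12 ± 0.21). They were followed by snrnp35 of the minor spliceosome (1.11 ± 0.25), cdc27 of the anaphase-promoting complex (1.08 ± 0.23), ralgps2, an exchange factor for Ral (1.08 ± 0.26), and hoxc11b (1.08 ± 0.33). In cdc27 the DAPT arrays read 8.04, 7.11 and 6.92 and the DMSO arrays 6.33, 6.65, 6.23 and 5.89, so the first DAPT array supplied much of the difference. Of these 10 genes, 6 were called without that array. Those that were not were npat, coq2, cdc27 and hoxc11b, with differences there of 0.94, 1.13, 0.74 and 0.80.

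Among the 10 largest falls chosen by the same rule, pcmtd1 had the smallest p of the 20 genes. The gene is related to the methyltransferases that repair damaged aspartyl residues. It read 9.93, 9.74, 10.18 and 9.65 with DMSO and 8.98, 8.35 and 8.40 with DAPT, with all DAPT arrays lower, a fall of -1.30 ± 0.16 (limma adjusted p = 2.61e-07). It also fell at 3 h (-0.78). The Golgi tethering gene cog7 read 7.87, 8.32, 8.18 and 7.85 with DMSO and 7.30, 6.80 and 6.90 with DAPT, a fall of -1.05 ± 0.16 (limma adjusted p = 4.25e-05). Levels of msrb1a, a methionine sulfoxide reductase, were 5.90, 5.26, 6.16 and 5.67 with DMSO and 4.66, 4.22 and 4.13 with DAPT, a fall of -1.41 ± 0.25 (limma adjusted p = 0.000261) that ended near the bottom of the scale. A dimmer probe set of msrb1a differed by 0.65 ± 0.28 and was not called.

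The other falls depended on the first DAPT array to different degrees. The ubiquitin ligase gene siah1 read 7.47, 7.44, 7.68 and 7.30 with DMSO and 4.48, 7.05 and 6.91 with DAPT. Its fall of -1.33 ± 0.26 (limma adjusted p = 0.00135) became a difference of -0.50 without that array. Among these 10 genes the largest fall, in the centrosomal gene cep85, was -1.70 ± 0.48 (limma adjusted p = 0.0332) and became -1.31, and a dimmer probe set of it differed by 0.53 ± 0.26. For cnih1, an export receptor of the endoplasmic reticulum, -1.19 ± 0.31 became -0.76. The monocarboxylate transporter family member slc16a9b (-1.39 ± 0.30) became -1.02, slc25a25a, a mitochondrial carrier (-1.28 ± 0.33), became -1.07, and scp2b, a sterol carrier (-1.25 ± 0.31), became -1.19. The autophagy gene tecpr2 fell by -1.06 ± 0.26 and differed by -1.11 without it. Of the 10 falls, 4 were called without replicate 1 of DAPT: pcmtd1, cog7, msrb1a and tecpr2.

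**Figure D4:**
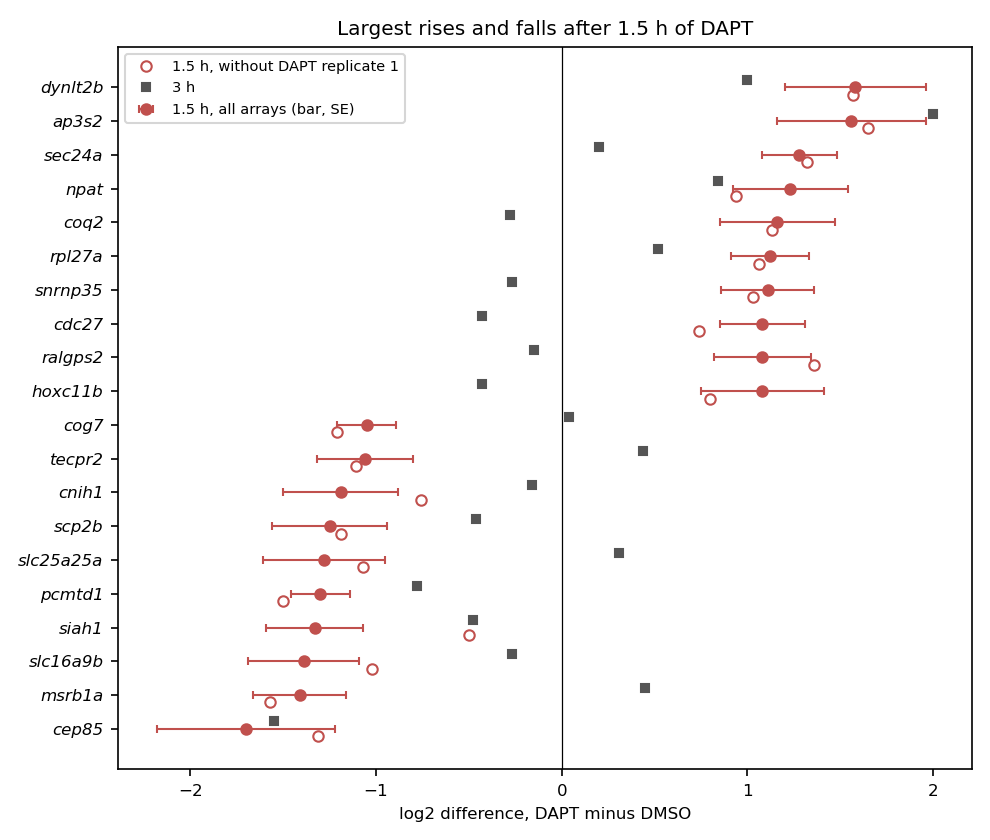
Log2 difference between DAPT and DMSO for the 10 largest rises and 10 largest falls at 1.5 h among called genes with proper names and arrays that do not overlap: all arrays (filled circles, bars give the SE), without replicate 1 of DAPT (open circles), and at 3 h (squares). The open circle of siah1 moves to -0.50, and the 3 h value lies nearer 0 than the 1.5 h value in every gene but ap3s2.

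Some genes of the mitochondrial respiratory chain rose and none of those tested was called lower. The lists were chosen after their values had been seen, so that the counts are a description. Complex I passes electrons from NADH to ubiquinone. Its genes were taken by symbol and included the assembly factors ndufaf4, ndufaf6 and ndufaf8 beside the subunits. Of 38 such genes tested, 12 rose and none fell, and 35 had a positive difference. Their median was 0.404, beside 0.00791 for all genes tested, of which 2.11% rose. Without replicate 1 of DAPT 6 rose, 37 were positive and the median was 0.414. The summed signal of complex I genes was 19700 to 21890 on the DAPT arrays and 14750 to 16470 on the DMSO arrays, so the groups did not overlap. Median centring gave a median of 0.280 with 4 rises, and the deposited scaling 0.391 with 9.

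The complex I genes called with every array left out in turn were ndufa2, ndufb4, ndufb5 and ndufb9. For ndufa2 the DMSO arrays read 8.16, 8.07, 7.80 and 7.85 and the DAPT arrays 8.73, 9.11 and 8.97, a rise of 0.97 ± 0.21 (limma adjusted p = 0.00323). For ndufb9 they read 8.86, 8.62, 8.60 and 9.01 with DMSO and 9.68, 9.82 and 9.55 with DAPT, a rise of 0.91 ± 0.19 (limma adjusted p = 0.00277). Rises of ndufb4 and ndufb5 were 0.72 ± 0.15 and 0.62 ± 0.13. In each of the 4 genes all DAPT arrays were above all DMSO arrays, as in 6.35% of all genes tested. Because the 4 were picked as called in every such fit, this separation adds no support.

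Complexes III and IV, which carry electrons on to oxygen, had 4 of 21 genes higher and none lower, with a median of 0.349, or 0.249 without replicate 1 of DAPT, when 2 were called. Over all genes tested 2.11% rose and 2.03% fell, with a median of 0.00791. Of these, cox6a1 read 9.54, 9.68, 9.64 and 9.69 with DMSO and 10.43, 10.48 and 10.23 with DAPT, a rise of 0.74 ± 0.14 (limma adjusted p = 0.000993). For ATP synthase 3 of 18 genes rose, with a median of 0.271, and the gene atp5f1c read 10.53, 10.49, 10.39 and 10.29 with DMSO and 10.99, 10.90 and 10.80 with DAPT (0.47 ± 0.10, limma adjusted p = 0.00405). Mitochondrial ribosomal protein genes had 5 of 59 higher with a median of 0.201. They included mrpl36 at 1.04 ± 0.18 and mrpl57 at 0.71 ± 0.15. With median centring 1 gene of complexes III and IV rose (median 0.202), none of ATP synthase (0.172) and 2 of the mitochondrial ribosome (0.095). Leaving out 1 array gave 6 to 13 rises for complex I, 1 to 5 for complexes III and IV, 1 to 3 for ATP synthase and 3 to 5 for the mitochondrial ribosome. For complex I 6 rose without DAPT replicate 1 or 2 and 7 without DMSO replicate 3. For complexes III and IV 1 rose without DMSO replicate 3, for ATP synthase 1 without DAPT replicate 2, and for the mitochondrial ribosome 3 without DMSO replicate 2 or 3. With the 7 arrays fitted alone, or with the replicate number as a block, no gene of these lists was called. The 13 arrays of the DAPT experiment alone gave 1 rise each for complex I and the mitochondrial ribosome, and none for the others.

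Cytosolic ribosomal protein genes were taken by symbol, and their list also held the kinase gene rps6ka3a. Of 77 listed genes tested, 11 were higher and none lower, beside 2.11% and 2.03% of all genes tested. The rises were 5 without replicate 1 of DAPT, 6 without DMSO replicate 3 and 7 without DAPT replicate 2. The median difference of the list was small, 0.0747, and depended on scaling, at 0.158 with median centring and 0.269 with the deposited scaling. The gene rpl28 read 10.82, 10.59, 10.36 and 10.86 with DMSO and 11.52, 11.38 and 11.52 with DAPT, a rise of 0.82 ± 0.14 (limma adjusted p = 0.000153). For rpl17 the DMSO arrays read 11.62, 11.35, 11.31 and 11.40 and the DAPT arrays 12.06, 12.06 and 11.96, a rise of 0.61 ± 0.11 (limma adjusted p = 0.000605). Both were among the genes that passed when the 7 arrays were fitted alone. Whether the probe sets of these genes also read related sequences was not tested.

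The choice of control bore on these groups. Against the DMSO arrays of the RA experiment, the complex I median was 0.244, with 12 genes higher and 1 lower, and atp5f1c differed by -0.10. With that control 628 of the 10126 probe sets tested were called higher and 738 lower. The 2 sets of DMSO arrays, which carry the same treatment label, differed from each other at 1705 probe sets (16.8% of those tested, 7.45% higher and 9.39% lower in the DAPT experiment). In that comparison 9 complex I genes were lower and 2 higher in the DMSO arrays of the DAPT experiment. Within the DAPT experiment at 3 h, where other DMSO arrays served as control, 3 of the 38 complex I genes rose and none fell, with a median of 0.288, where 2.35% of all genes rose and 2.92% fell, 5.27% together.

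Epidermal genes were set beside these groups. Of 22 genes tested of an epidermis and ionocyte list none was called, beside 4.14% of all genes tested. Among the 22, 18 had a positive and 4 a negative difference, and 4 had an unadjusted p under 0.05. The median difference was 0.49, or 0.384 without replicate 1 of DAPT. The summed signal of all 27 genes of this list on the array was 7259 to 12100 with DAPT, highest on replicate 1. With DMSO it was 4750 to 7395, so the ranges overlapped slightly. Against the DMSO arrays of the RA experiment 10 of the 22 were called, all higher, with a median of 1.180, and between the sets of DMSO arrays 5 were called, all higher in the DAPT experiment. Over the 10126 probe sets tested, 628 were higher and 738 lower in the first of these comparisons. In the second 7.45% were higher and 9.39% lower. The keratin krt8 read 8.94, 9.06, 9.44 and 9.54 with DMSO and 10.88, 10.12 and 9.86 with DAPT, all DAPT arrays above all DMSO arrays, with a difference of 1.04 ± 0.73. Such separation was found for 6.35% of all genes tested. The keratin krt4 differed by 1.01 ± 0.82. The part of epidermal RNA in the differences of the respiratory and ribosomal genes was not tested. Blood and endothelial genes had a median of 0.699 over 15 genes tested, none of them called and 1 with an unadjusted p under 0.05. The summed signal of the 22 on the array overlapped between the groups, at 2871 to 4432 with DAPT and 2366 to 3858 with DMSO. The 16 genes of notochord, floor plate and hypochord on the array summed to 2335 to 3697 with DAPT and 1622 to 2069 with DMSO. None of the 11 tested was called, and their median difference was -0.189, with 5 positive and 6 negative. The 4 defining notochord markers summed to 31.78 to 62.66 with DAPT and 63.9 to 91.99 with DMSO.

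Hox genes, which give position along the body axis, also form a list chosen after its values were seen. Of 39 tested, 7 rose and none fell, with 31 positive and a median of 0.243, and without replicate 1 of DAPT 4 rose with a median of 0.259. Over all genes tested 2.11% rose and 2.03% fell, with a median of 0.00791, and 1.2% rose without that array. The count fell to 1 without DMSO replicate 2 or DAPT replicate 3, to 2 without DMSO replicate 1, and to 3 without DMSO replicate 4 or DAPT replicate 2, the last with 1 gene lower. Median centring left 2 rises and a median of 0.156. No Hox gene was called with the 7 arrays fitted alone or with the replicate number as a block. The gene hoxd3a read 4.94, 4.67, 4.4 and 5.39 with DMSO and 5.64, 5.68 and 5.95 with DAPT, low levels at which the DAPT arrays were all the higher (0.91 ± 0.19, limma adjusted p = 0.00314). It was called with each array left out in turn. The posterior genes hoxd9a, hoxa10b and hoxa9b rose by 0.69 ± 0.20, 0.48 ± 0.14 and 0.53 ± 0.16 (limma adjusted p = 0.0304, 0.0398 and 0.0478). They passed in 12, 8 and 9 of 22 alternatives. The remaining calls were hoxc11b, hoxc5a and hoxb3a. Those called without replicate 1 of DAPT were hoxd9a, hoxa9b, hoxd3a and hoxc5a. Summed Hox signal was 13200 to 14290 on the DAPT arrays and 10200 to 12250 on the DMSO arrays.

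**Figure D5:**
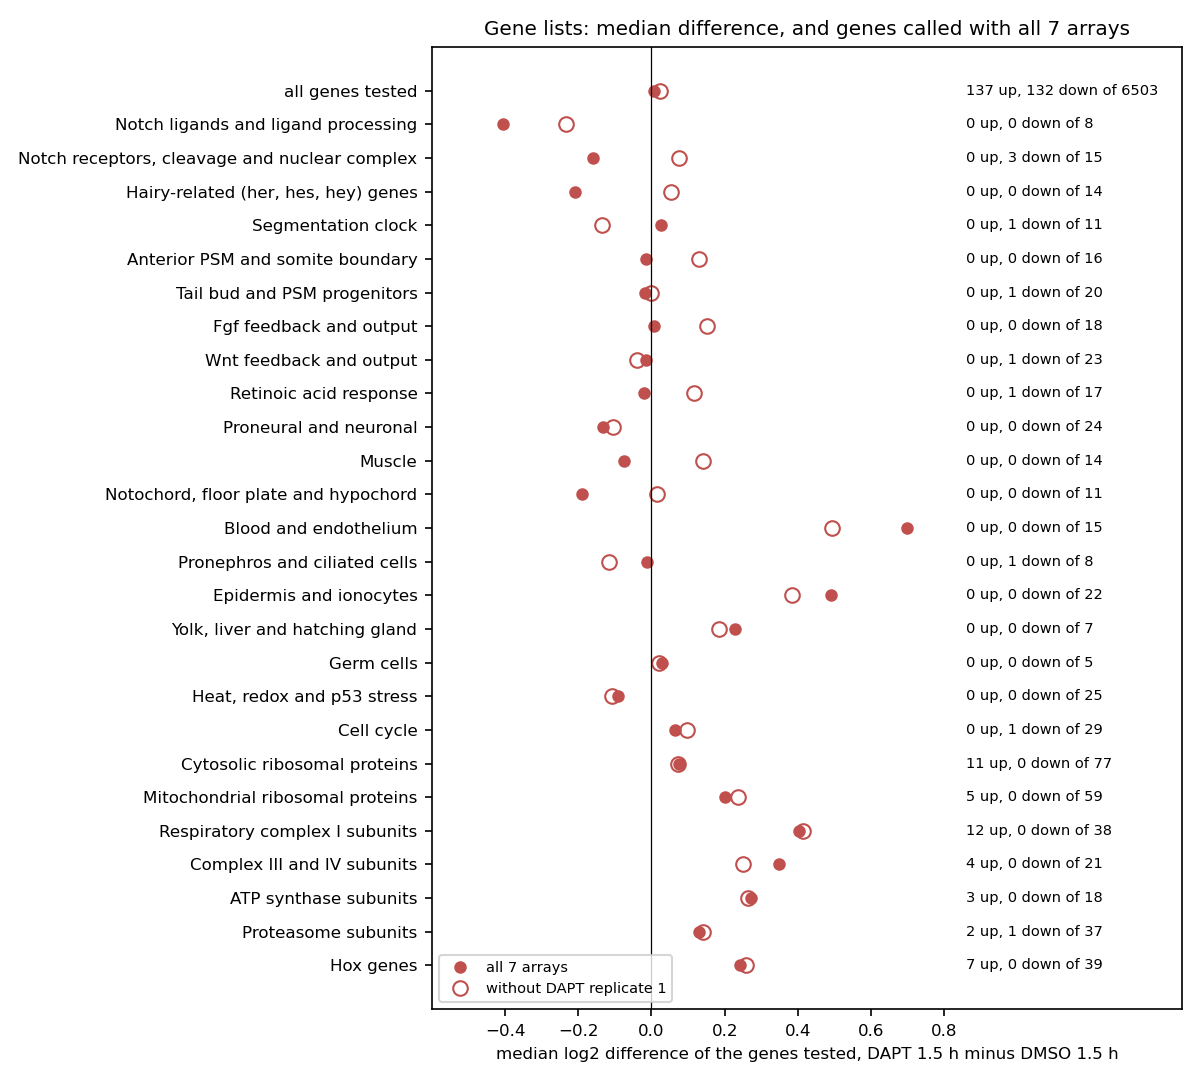
Median log2 difference between DAPT and DMSO at 1.5 h for all genes tested and for each gene list, with all 7 arrays (filled) and without replicate 1 of DAPT (open), and, at the right, the number of genes called in each direction of those tested. Complex I lies at 0.404 in the former and 0.414 in the latter, while the Notch receptor and her, hes and hey lists move from below 0 to above it.

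Few genes of the PSM programme were called at 1.5 h. Over all genes tested 4.14% were called, 2.11% higher and 2.03% lower, and at that share lists this short hold few calls in any case. None of 16 genes of the anterior PSM and somite boundary was called, and none had an unadjusted p under 0.05 (median -0.0159). Of 20 tail bud genes 1 fell, cdx4, a regulator of posterior identity. It read 12.19, 12.24, 12.14 and 12.25 with DMSO and 12.14, 11.81 and 11.86 with DAPT, a fall of -0.27 ± 0.08 (limma adjusted p = 0.0415), and the first DAPT array lay within the DMSO range. It was called in 2 of 7 fits with an array left out and in 8 of 22 alternatives, whose adjusted p ran from 0.00966 to 0.739. The PSM regulator msgn1 differed by -0.17 ± 0.09. None of 18 Fgf feedback and output genes was called and 3 had an unadjusted p under 0.05 (median 0.0068), while 1 of 23 Wnt genes was, again cdx4. The Fgf targets etv4 and spry4 differed by 0.52 ± 0.21 and 0.31 ± 0.30, with all DAPT arrays above all DMSO arrays in both. Such separation was found for 6.35% of all genes tested. Over 22 alternatives the difference ran from 0.37 to 0.88 for etv4 and from -0.35 to 0.37 for spry4. Of 17 genes of the RA response 1 fell, nr2f1a (-0.85 ± 0.22), at levels no higher than 5.07 on any of the 7 arrays.

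Of 29 cell cycle genes 1 fell, beside 2.03% of all genes tested. It was mcm4, part of the helicase that unwinds DNA for replication. It read 9.46, 9.51, 9.50 and 9.49 with DMSO and 9.33, 8.10 and 8.45 with DAPT, a fall of -0.86 ± 0.20 (limma adjusted p = 0.00592). Its DMSO arrays were nearly equal, and here it was the first DAPT array that lay closest to them, so that the difference without it was larger, -1.22. No gene was called among 25 of heat, redox and p53 stress, 24 proneural and neuronal genes or 14 muscle genes, where 3, 1 and 0 had an unadjusted p under 0.05. The pronephric transcription factor lhx1a fell (-0.71 ± 0.22, limma adjusted p = 0.0478), at levels between 4.09 and 5.10, and was not called once any 1 of the 7 arrays was left out.

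The picture at 3 h of DAPT differed. There 230 probe sets were higher (2.27%) and 312 lower (3.08%), 5.35% of those tested, and 15 were called in the same direction as at 1.5 h, which is 3.62% of the calls at 1.5 h and 2.77% of those at 3 h. Another 16 were called in the opposite direction. The differences at the 2 times had a Pearson correlation of 0.052 across 10126 probe sets. Named genes called in the same direction at both times included pcmtd1, ap3s2 (limma adjusted p = 0.00366 at 3 h) and metrn, which encodes a secreted factor of neural development and fell by -0.74 and -0.93, the last chosen after its values were seen. The clock gene her7, with 0.72 at 1.5 h, fell by -2.16 at 3 h (limma adjusted p = 0.0435), while the difference between times had an adjusted p of 0.0536.

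A test of the effect at 3 h minus the effect at 1.5 h called 401 probe sets, 180 higher (1.78%) and 221 lower (2.18%), 3.96% in all. Hox genes were among those that differed: hoxd3a went from 0.91 to -1.18 (limma adjusted p of the difference 4.35e-06), hoxa10b from 0.48 to -0.69 (0.000778) and hoxa9b from 0.53 to -0.65 (0.00273). Of the 39 Hox genes 1 rose and 6 fell at 3 h, beside 2.35% and 2.92% of all genes tested. The T-box gene tbx16, a driver of PSM formation, went from 0.42 to -1.16 (limma adjusted p of the difference 5.62e-05). Its levels at 1.5 h were 10.65, 10.50, 10.65 and 10.41 with DMSO and 11.02, 10.93 and 10.96 with DAPT, higher on each DAPT array though not called, and its dimmer probe set differed by -0.08 and -0.05 at the 2 times. Arrays separated in that direction at 1.5 h for 6.35% of all genes tested. The Fgf target spry4 went from 0.31 to -1.59 (0.00946) and the somite gene foxc1b from 0.31 to -1.26 (0.00364). The germ cell gene nanos3, at 4.04 to 5.39 on the 7 arrays of 1.5 h, differed by 0.03 there and 2.99 at 3 h. The 3 h values rest on 2 DAPT arrays. Without the first of them 170 probe sets were called at 3 h and 218 for the difference between times.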

How the data were processed

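Arrays of dissected posterior PSM were grouped by their titles. The authors deposited linear intensity values for 15617 probe sets. Per the submitters' processing notes these came from MAS5, whose version is not stated there. The trimmed mean of each array was close to 150, and all 13 arrays of the DAPT experiment were deposited rounded to 1 decimal. From these, 115 control probe sets were removed, a pseudocount of 16 was added, log2 taken, and the 72 arrays quantile normalized, because their medians spanned 0.738 (over the set limit of 0.5). Both steps can change values: the pseudocount shrinks differences of dim genes. Testing was limited to the 10126 of 15502 probe sets that lay above the array median on 3 or more arrays. Symbols came from the platform annotation, checked against a RefSeq gene table (10711 matched); 1 symbol was listed for 10795 probe sets, several for 135 and none for 4572, and only the first kind was named. A gene was represented by its brightest probe set. Genome sequence was not used here.

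Groups were compared with limma 3.58.1 (R 4.3.3, statmod 1.5.0) as 19 group means over 72 arrays, with trended, robust empirical Bayes moderation, two-sided tests and Benjamini-Hochberg adjustment over all probe sets tested, threshold 0.05. All adjusted p-values are from this fit unless stated. The number of arrays limits the precision. The test was checked on simulated data. The simulated arrays were independent and had the pooled spread of each probe set in every group, so unequal spread and an outlying array were not covered. Named genes were the Notch and clock lists, the 10 largest rises and falls among called genes with proper names and non-overlapping arrays, up to 4 members of other lists by smallest p, and the 8 largest differences between times in each direction, described in part; others were chosen after their values were seen. The comparison, members and lists were chosen with earlier results of these data known. Alternatives changed scaling, pseudocount, filter, the arrays fitted, moderation, array weights, control arrays, and left out each array.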

Additional observations from a re-analysis of the deposited data

Results flagged for a closer look

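In 8 of the 91 genes named, 1 of the 4 DMSO arrays at 1.5 h lay far from the other 3 by Dixon's test, which chance alone does in about 1 of 20 groups. Replicate 2 was the odd array for notch1a (6.91, others 7.74 to 7.82), hey2 (4.71, others 5.84 to 6.01), spry4 (10.03, others 10.37 to 10.41), krt4 (8.98, others 9.56 to 9.62) and slc16a9b (7.92, others 7.62 to 7.66). Replicate 1 was low for jag1a (6.05), replicate 3 was high for aph1b (9.50) and replicate 4 was low for foxc1b (7.93).

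The effect of DAPT differed between 3 h and 1.5 h in 19 of the named genes, by a limma test of the difference itself. Over all probe sets tested, that test called 3.96%. Some of these genes were named because the same test called them, and others for a large change at 1.5 h. The count of 19 is therefore a description and cannot be read against that share. Values subtract the 1.5 h effect from the 3 h effect on the log2 scale. Higher at 3 h were nanos3 (2.96), msrb1a (1.86), tecpr2 (1.50), nr2f1a (1.47), cog7 (1.1) and lhx1a (1.1). Lower were her2 (-2.64), hoxd3a (-2.09), spry4 (-1.91), tbx16 (-1.58), foxc1b (-1.57), cdc27 (-1.51), snrnp35 (-1.38), ap1g1 (-1.24), hoxa9b (-1.18), hoxa10b (-1.17), sec24a (-1.08), etv4 (-1.08) and ndufb9 (-1.04). With the 13 arrays of the 4 groups fitted in place of all 72, 11 probe sets were called for this difference. The causes were not tested.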

How the results depend on the processing

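Counts of calls moved with the arrays fitted, their weights, the scaling and the control. Fitting the compared groups alone left 7 calls for DAPT at 1.5 h, 78 for DAPT at 3 h, 11 for the difference between times, 61 and 329 for notch1a-intra at 45 and 90 min, and with quantile normalization of those groups alone the first 3 were 10, 75 and 12. Added after seeing the data, the 13 arrays of the DAPT experiment alone gave 32 for DAPT at 1.5 h, and its 7 arrays alone less replicate 1 of DAPT gave 57. Array weights gave 196, 35 and 42 for the DAPT results, and median centring gave 315 at 3 h and 221 between times. Against the DMSO arrays of the RA experiment, DAPT at 1.5 h had 1366 calls, and psen2 (0.50), ralgps2 (-0.01), atp5f1c (-0.10) and tfb2m (0.12) reversed their sign. The cause was not tested. The smaller fits had fewer residual degrees of freedom (5 against 53). Arrays also differed in their median absolute deviation from the group mean. It was 0.171 to 0.258 on the 7 arrays, 0.177 to 0.212 for notch1a-intra at 45 min and 0.113 to 0.14 in the RA experiment. The pooled fit gives each probe set the same spread in all groups, so its standard errors may be too small for DAPT at 1.5 h. Leaving out 1 array gave 225 to 429 calls for DAPT at 1.5 h, 170 to 723 at 3 h, 218 to 492 between times, 244 to 524 for notch1a-intra at 45 min and 434 to 704 at 90 min. The arrays whose omission lowered a count by over 1.5 times were replicate 1 of DAPT (225) and replicate 3 of DMSO (262) at 1.5 h, replicate 1 of DAPT at 3 h (170, and 218 between times), replicate 3 of notch1a-intra at 45 min (244), and at 90 min replicates 1 (434) and 3 (459) of notch1a-intra and replicate 3 of gal4 (435). Apart from these and the replicate block below, the counts under the other alternatives stayed within 1.5 times. Of 46 named genes called, each lost its call in at least 1 alternative, and 6 genes not called passed in at least 1. The first count was fixed by the replicate block, which called 0 probe sets for DAPT at 1.5 h. The called genes ranged from 5 of 22 alternatives passed (hoxc11b) to 21 of 22 (sec24a, pcmtd1 and rpl17).

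Whether replicate numbers pair the samples is not given in the labels. Deviations of DAPT and DMSO arrays with the same number correlated at -0.0038, 0.084 and 0.056, and those with unlike numbers at -0.15 to 0.071. So few correlations cannot decide it. With the replicate block, limma called 0 probe sets for DAPT at 1.5 h (1058 at an unadjusted p under 0.05), 88 at 3 h, 14 between times, 158 and 297 for notch1a-intra at 45 and 90 min, and 627 between the sets of DMSO arrays.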

Other observations

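A few further called genes were picked after their values were seen and are given as values only. Rises were found for ap1g1 of the AP-1 adaptor (0.80 ± 0.18, limma adjusted p = 0.00587), clta, the clathrin light chain (0.61 ± 0.12, limma adjusted p = 0.00211), and copa of the COPI coat (0.42 ± 0.10, limma adjusted p = 0.0116). A dimmer copa probe set differed by 0.26 ± 0.24. For ap1g1 the arrays read 6.71, 6.35, 6.76 and 7.03 with DMSO and 7.63, 7.49 and 7.41 with DAPT.

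A mitochondrial transcription factor gene, tfb2m, fell by -1.02 ± 0.19 (limma adjusted p = 0.000603) and was called with each array left out in turn. Over 21 alternatives it passed in 14 and reversed once, to 0.12 against the DMSO arrays of the RA experiment. The arrays read 5.81, 5.74, 5.99 and 5.50 with DMSO and 4.76, 4.56 and 4.91 with DAPT. For acsl1a, which activates long-chain fatty acids, the brightest probe set differed by -0.55 and was not called (limma adjusted p = 0.181), while a dimmer one fell by -1.31 ± 0.23 (limma adjusted p = 0.000244).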
